A study of Mus musculus with 7 samples.

Results

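Binding of ATF4 was set against RNA levels in primary mouse dermal fibroblasts under endoplasmic reticulum (ER) stress. The members were the 22943 genes listed at 1 locus on chromosomes 1 to 19 and X, of 23695 entries in the RNA table of treated cells. Each gene was scored for an ATF4 peak within 1 kb of either end of its locus, and 7164 genes (31.2%) had one. The peaks were 10067 of the 10109 listed for ATF4, those on the mitochondrial chromosome and the Y chromosome being left out. The genes were then placed in 5 classes by FPKM, a measure of RNA level that counts fragments and corrects for transcript length and library depth.

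The cells came from the skin of female FVB/N mice, whose age is not given in the sources used here, and were grown for 8 days in DMEM/F12 medium with fetal bovine serum. Treated cells received thapsigargin for 3 h and untreated cells did not. Thapsigargin blocks the pump that loads calcium into the ER, which disturbs protein folding there. RNA was measured in 1 treated and 1 untreated library, ATF4 (also named CREB-2) in 1 chromatin immunoprecipitation of treated cells, the related factor CEBPB in 1 treated and 1 untreated immunoprecipitation, and CpG methylation in 2 bisulfite libraries of untreated cells, deposited as pooled percentages. No ATF4 immunoprecipitation of untreated cells was analysed here, so a peak cannot be assigned to the treatment. With 1 library a group no difference has a replicate check and no p-value is given; intervals are 95% Wilson intervals and cover counting error over genes only. The confidence bounds deposited with each FPKM implied 78867396 fragments in genes of the treated and 53827793 of the untreated library, with a median of 2857 and 1761 fragments for genes at FPKM 1 or more. In treated cells the fibroblast markers Col1a1, Col1a2, Col3a1 and Vim stood at FPKM 883.8, 883.4, 562.0 and 1223, while the keratinocyte genes Krt5 and Krt14 were under 0.5 and the endothelial genes Pecam1 and Cdh5 under 0.1. Macrophage markers were also present, with Lyz2 at FPKM 951.4, Cd68 at 71.6 and Csf1r at 36.5, and none of these 3 genes had an ATF4 peak. The muscle genes Acta1 and Des stood at FPKM 42.1 and 17.8. Of the melanocyte and Schwann cell genes, Sox10 stood at 4.31 and Mlana at 0.049. Apart from Lyz2 and Csf1r, these markers were higher in untreated cells. There Col1a1 stood at FPKM 6473, Krt5 at 3.33, Krt14 at 6.39, Cdh5 at 0.723 and Sox10 at 23.4. Lyz2 and Csf1r stood at 879.7 and 20.5. The RNA changes below thus compare libraries that also differ in these markers, for a reason that was not tested.

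ATF4 is a transcription factor with a basic leucine zipper (bZIP) that acts in the integrated stress response. Its messenger RNA is translated more efficiently when the initiation factor eIF2 is phosphorylated, as happens when the kinase PERK senses misfolded protein in the ER. ATF4 pairs with other bZIP proteins, CEBPB and CEBPG among them, and such pairs bind composite elements that join a CEBP and an ATF site, of the form TGATGNAA. Genes for amino acid synthesis and uptake, for tRNA charging and for feedback on the response are known targets.

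The sites below are shown as examples from ATF4 peaks at the stress response, amino acid, one-carbon, transport and tRNA charging genes described further on. They are a selection: sites at Mars, Eif1, Ppp1r15b, Slc7a1, Ran, Cebpb, Iars and Cars, among others, whose peaks score above that of Slc38a2, are not printed. Sequences are from the mm9 reference, which is not the FVB/N strain of the cells, and run 5′ to 3′ on the strand of the gene. Capitals mark a match to TGATGNAA on either strand, or to TGACGCAA in the sites so named.
Chac1, chr2:119176759-119176818: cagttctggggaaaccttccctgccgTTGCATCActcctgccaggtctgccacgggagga
Chac1, TGACGCAA, chr2:119176702-119176761: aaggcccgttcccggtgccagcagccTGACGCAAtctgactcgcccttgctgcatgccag
Asns, chr6:7643214-7643243: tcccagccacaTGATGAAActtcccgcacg
Gars, chr6:54987954-54987983: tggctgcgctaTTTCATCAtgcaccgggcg
Trib3, chr2:152169764-152169793: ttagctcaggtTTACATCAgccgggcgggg
Herpud1, chr8:96910191-96910250: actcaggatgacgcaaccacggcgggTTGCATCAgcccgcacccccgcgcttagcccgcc
Mthfd1l, chr10:6372749-6372808: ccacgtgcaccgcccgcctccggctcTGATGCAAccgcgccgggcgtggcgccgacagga
Mthfd2, chr6:83267148-83267207: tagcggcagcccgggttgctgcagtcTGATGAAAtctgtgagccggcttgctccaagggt
Yars, chr4:128867139-128867168: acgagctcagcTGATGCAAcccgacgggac
Cebpg, chr7:35841186-35841245: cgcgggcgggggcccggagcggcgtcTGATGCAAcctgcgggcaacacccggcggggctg
Ddit3, chr10:126727522-126727581: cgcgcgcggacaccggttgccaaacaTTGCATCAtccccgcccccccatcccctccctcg
Aldh18a1, TGACGCAA, chr19:40662880-40662909: tctaacgcggcTGACGCAActccggagagc
Slc38a2, chr15:96529582-96529641: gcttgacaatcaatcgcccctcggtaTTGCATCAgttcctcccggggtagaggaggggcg
The genes lie on the plus strand for Chac1, Gars, Herpud1, Yars and Ddit3 and on the minus strand for the other 7. Distances are from the start of the locus listed with the FPKM, which can differ from an annotated transcript start. The first site of Chac1 begins 193 bp upstream, that of Asns 50 bp upstream, that of Trib3 14 bp downstream and that of Slc38a2 514 bp downstream. The sites of Asns, Yars and Aldh18a1 lie in annotated exons, and those of the other genes shown lie outside exons.

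The share of genes with an ATF4 peak was higher in each successive class of RNA level. It was 8.83% (806 of 9124 genes, interval 8.27 to 9.43) at FPKM 0 to 0.1 and 29.7% (867 of 2921, 28.1 to 31.4) at 0.1 to 1. It reached 43.4% (1705 of 3925, 41.9 to 45.0) at FPKM 1 to 5, 53.5% (2374 of 4436, 52.0 to 55.0) at 5 to 20 and 55.7% (1412 of 2537, 53.7 to 57.6) over 20. The intervals of the 2 highest classes overlap, and those of the lower classes do not. Of the 5495 genes listed at FPKM 0, 3.42% had a peak, and of the 162 genes over FPKM 200, 42.0% (68 genes, 34.6 to 49.7), below the 56.0% of the 744 genes at 50 to 200.

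The score of the highest peak differed little between classes. The score is the authors' own value for each peak and ranks peaks within this list; over all 10067 peaks its median was 5.41. Among genes with a peak, the median of the highest score was 5.40 at FPKM 0 to 0.1, 5.60 at 0.1 to 1, 5.99 at 1 to 5, 6.18 at 5 to 20 and 6.52 over 20. The middle range (quartiles) ran from 4.29 to 6.98 in the lowest class and from 4.80 to 8.90 in the highest, so most peaks of silent and of highly expressed genes had scores in the same range. Scores over 20 were found at 7, 7, 15, 28 and 42 genes of the successive classes, which is 0.868% of the genes with a peak in the lowest class and 2.97% in the highest. Across the 7164 genes with a peak, score and FPKM had a Spearman rho of 0.13, and across the 5491 of them at FPKM 1 or more, 0.07; genes are not independent replicates, and all values come from 1 pair of libraries.

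**Figure D1:**
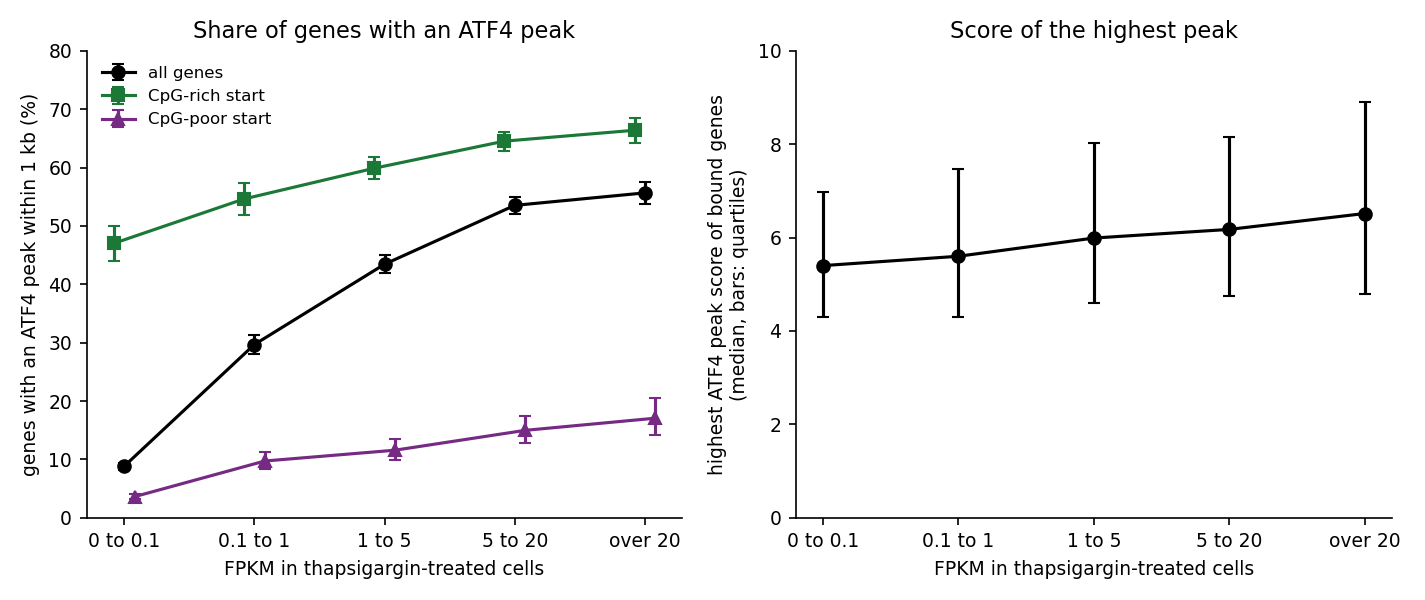
Left: percent of genes with an ATF4 peak within 1 kb of a locus end (y axis) by FPKM class in treated cells (x axis), for all genes and for genes with CpG-rich and CpG-poor starts, with 95% Wilson intervals. Right: highest ATF4 score of genes with a peak, median with quartiles, by the same classes. The share over all genes goes from 8.83% to 55.7%, while the median score goes from 5.40 to 6.52.

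**Figure D2:**
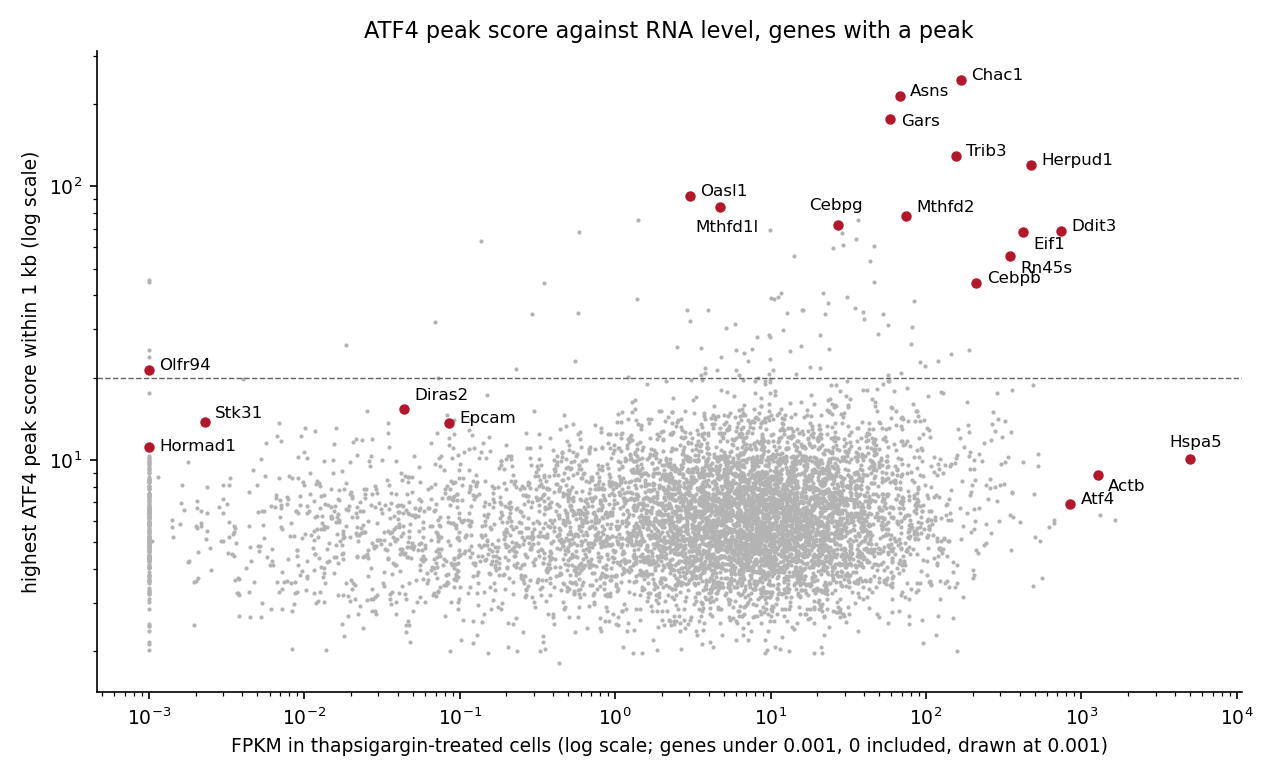
Highest ATF4 peak score (y axis, log scale) against FPKM in treated cells (x axis, log scale; genes under 0.001 are drawn at 0.001) for the 7164 genes with a peak, 1 point per gene. Most points lie under the dashed line at a score of 20 at every RNA level; Chac1 and Asns lie highest, and Hspa5, at FPKM 4978, has a score of 10.1.

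Most of these peaks were at gene starts with many CpGs. Of the 21571 genes matched to the annotation, 31.5% had a peak within 1 kb of the start and 2.16% within 1 kb of the end. Among genes with a CpG-rich start (observed over expected CpG of at least 0.6 and a GC share of at least 0.5 within 500 bp), 47.0% had a peak at FPKM 0 to 0.1 and 66.4% over 20. With a CpG-poor start the shares were 3.63% and 17.1%. CpG-rich starts made up 13.1% of the annotated genes in the lowest class and 78.6% in the highest, so the composition of the classes differed along with the share. A silent gene with a CpG-rich start had a peak more often (495 of 1053) than a gene over FPKM 20 with a CpG-poor start (92 of 539).

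The 7164 genes were chosen for a peak within 1 kb, so their distances are bounded by that rule. Of all 10067 peaks, 3145 were not within 1 kb of a locus end. For 3481 of the 7164 genes the highest peak covered a locus end itself, with a median score of 6.46, and for 74 it lay 900 to 1000 bp away, with a median score of 5.12; just outside the limit, at 1001 to 1100 bp, 73 further genes had a nearest peak with a median score of 5.25. At the limits of the FPKM classes, 33.5% of 233 genes just under FPKM 0.1 (0.0800 and over) and 19.8% of 242 genes just over it (up to 0.125) had a peak, an order opposite to that of the classes as a whole. On either side of FPKM 1 the shares were 35.4% and 38.4%, on either side of 5 they were 47.3% and 48.6%, and on either side of 20 they were 53.5% and 58.4%.

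Several genes of the stress response itself had high scores. Chac1, an enzyme that breaks down glutathione, had the highest score of all ATF4 peaks (244.7), followed among expressed genes by Asns and Gars, which belong to the groups described next. A peak with no gene within 1 kb reached 225.4. The RNA of Chac1 was at FPKM 168.1 in treated and 16.8 in untreated cells. The difference was 3.25 on the log2(FPKM + 1) scale, which understates the change of low genes. Trib3, a pseudokinase that feeds back on ATF4, had a score of 129.4 and stood at FPKM 156.2 against 69.2. Herpud1, a membrane protein that aids the removal of misfolded ER proteins, had a score of 119.7 and stood at 470.9 against 55.6. Ddit3, which encodes the bZIP factor CHOP, had a score of 68.5 and stood at 734.6 against 82.9. Cebpg and Cebpb, both partners of ATF4, had scores of 72.5 and 44.2, with FPKM 27.3 against 11.4 and 210.7 against 33.4. All 6 genes were thus higher in the treated library by at least 1 on the log2 scale. Other listed genes of the response with scores over 20 were not higher. Jdp2 (score 34.2, log2 difference -0.043), Ero1l (29.95, -0.266) and Eif4ebp1 (25.3, 0.182) changed by less than 1. Stc2 (24.6, -1.33) was lower. Atf3, another bZIP gene of the response, had a lower score of 15.6, with FPKM 59.9 against 13.3.

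Enzymes of amino acid and one-carbon metabolism had scores as high without such a difference in RNA. Asns, which makes asparagine, had the score 213.6 and was at FPKM 67.9 in treated and 75.8 in untreated cells. Mthfd2 and Mthfd1l, enzymes of mitochondrial one-carbon metabolism, had scores of 78.0 and 84.3, with FPKM 74.9 against 39.4 and 4.72 against 9.53. Psat1, of serine synthesis, had a score of 60.5 and stood at 46.3 against 68.4. Aldh18a1, which starts proline synthesis, had a score of 64.1 and FPKM 35.7 against 52.6, but its treated value is marked as a failed estimate. Of these 5, Mthfd2 had the largest increase, 0.91 on the log2 scale. The transporters Slc7a1, for cationic amino acids, and Slc38a2, for neutral ones, had scores of 61.2 and 38.1. Slc7a1 stood at FPKM 29.3 against 12.0, higher by 1.22 on the log2 scale, and Slc38a2 at 84.0 against 81.8.

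Among tRNA synthetases, which charge tRNA with amino acids, Gars had the score 175.4, Yars 75.4, Mars 69.3 and Iars 40.6. None of the 4 was higher in treated cells: Gars stood at FPKM 59.0 against 110.6, Yars at 36.8 against 39.0, Mars at 9.89 against 39.8 and Iars at 21.7 against 23.4. The peak at Yars also lies within 1 kb of S100pbp, a gene on the opposite strand, at FPKM 1.41 against 7.94. Junction density differed between the genes that were lower and higher in the treated library: genes lower by log2 1 or more had a median of 4.96 junctions per kb of coding transcript, against 2.05 for genes higher by as much. The cytosolic synthetases had a median of 6.60 junctions per kb, and the part this plays in their values was not tested.

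Of the 20 expressed genes with the highest scores, 16 were over FPKM 20 and 9 were higher, 2 lower and 9 neither, by the limit of log2 1. Over all 12154 genes that reached FPKM 1 in at least 1 library, 6.04% were higher and 28% lower. The peaks of 18 of the 20 overlapped a CEBPB peak of treated cells, where 4.38% of all ATF4 peaks did. Those of 10 overlapped one of untreated cells. Of the peaks at genes of FPKM 1 to 5, 5 to 20 and over 20, 1.89%, 2.23% and 3.83% did so. TGATGNAA or TGACGCAA stood somewhere in the peak for 17 of the 20, where 187 of the 7164 genes with a peak (2.61%) and 56 of the 99 with a score over 20 (56.6%) had such a site. The 3 without were Psat1, Oasl1 and Rn45s. Oasl1, a gene of the interferon response, had a score of 91.9 at a CpG-poor start, with FPKM 3.03 against 0.73. The DNA under its peak was 44.3% methylated in untreated cells. Rn45s is a ribosomal RNA precursor, whose repeated copies make both its FPKM and its score uncertain, and its peak was 22.9% methylated. Psat1 followed at 5.24%. The peaks of the other 17 genes were at or below 3.15%. The remaining genes of the 20 were Eif1, a factor in start codon selection (score 68.0, FPKM 423.0 against 115.0), Ppp1r15b, a subunit of the eIF2 phosphatase (67.6, 28.7 against 18.0), and Ran, a GTPase of nuclear transport (59.7, 25.3 against 48.5).

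**Figure D3:**
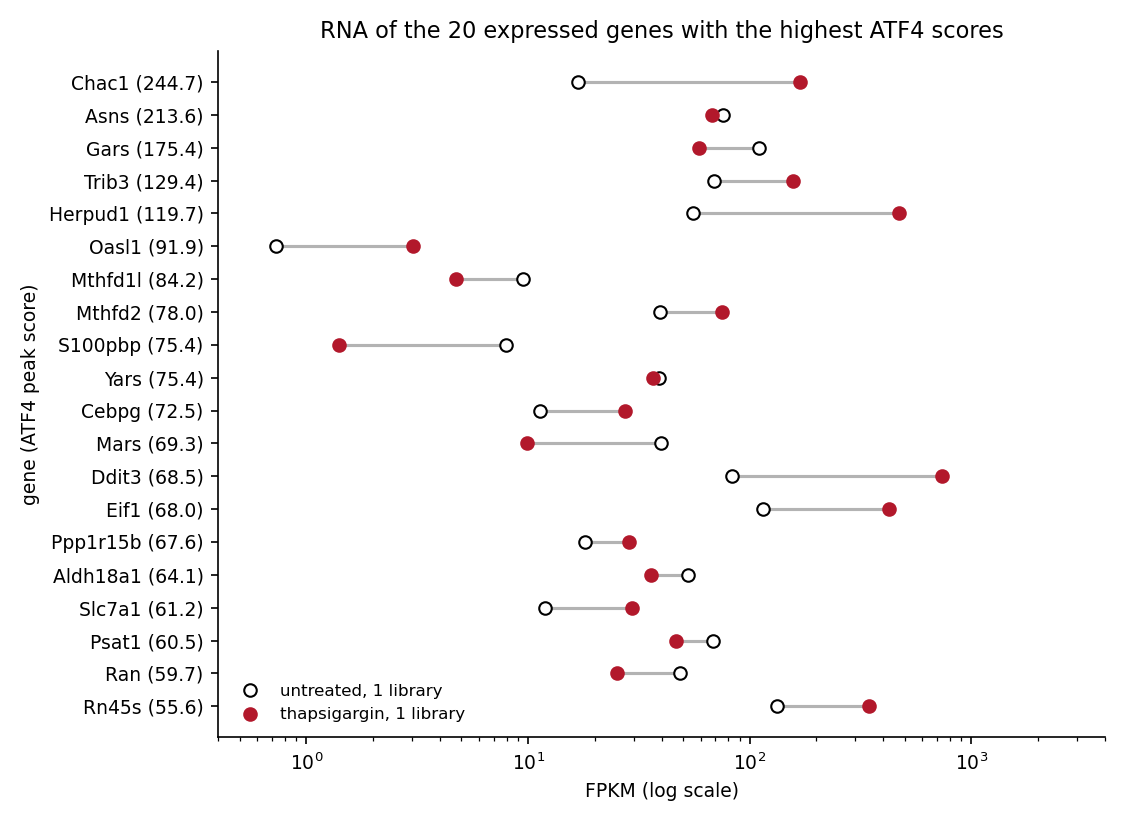
FPKM (x axis, log scale) of the 20 expressed genes with the highest ATF4 scores in the untreated (open) and thapsigargin (filled) library, 1 library each, ordered by score (in brackets). Chac1, Herpud1 and Ddit3 lie far to the right in treated cells, while Asns, Gars and Yars lie at or left of their untreated level.

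Gene lists with like shares of peaks had unlike scores. Among the 10898 genes at FPKM 1 or more in treated cells, 50.4% had a peak and 0.78% had one scoring over 20. Over the 12154 genes that reached FPKM 1 in at least 1 library, 6.04% were higher in RNA and 28% lower. Of 26 effectors of the integrated stress response 21 had a peak, 10 of them over 20, and 14 were higher in treated cells. Of 18 genes of amino acid synthesis 12 had a peak, 6 over 20, and none was higher. Of 15 amino acid transporters 8 had a peak, 4 over 20, and 3 were higher. Of 20 cytosolic tRNA synthetases 15 had a peak, 6 over 20, with none higher and 10 lower. For lists of this length, none higher is a count near the 6.04% over all expressed genes. Joined, these 4 lists hold 78 genes, of which 55 had a peak and 26 scored over 20, where 99 of all 22943 genes did (0.432%). Of these 26 genes, 24 had TGATGNAA or TGACGCAA in the peak and 17 had a peak overlapping CEBPB of treated cells, beside 56 and 46 of all 99 genes scoring over 20. Of the 26, 7 were higher in RNA and 4 lower. Of the 29 with scores of 20 or less, 9 had such a site, beside 1.85% of all 7065 genes with a peak of 20 or less. The members were listed as known ATF4 targets, with results of these data known, so the counts describe the lists and are no independent evidence.

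The listed ER chaperones and degradation factors, genes that fold or remove proteins in the ER, had scores near those of expressed genes in general. Of 30 such genes 22 had a peak, with a highest score of 12.99 and a median of 6.94. The median of all genes with a peak at FPKM 1 or more was 6.19. Herpud1 and Ero1l, with scores of 119.7 and 29.95, were placed among the stress response effectors and not in this list. The highest score of the list depends on that choice. In RNA, 15 of the 30 were higher in treated cells. Hspa5, the main ER chaperone BiP, was the gene with the highest FPKM of all with a peak, at 4978 against 354.2, and its score was 10.1. Hyou1, another chaperone, had a score of 10.7 and stood at FPKM 192.4 against 40.4, and Xbp1, a bZIP factor of ER stress, had 10.3 and stood at 337.2 against 72.9. Sel1l, of the degradation machinery, had the highest score of the list and stood at 69.8 against 40.2. None of the 22 peaks overlapped a CEBPB peak of treated cells, and 1 of them held TGATGNAA or TGACGCAA, counts near the 2.67% and 2.61% of all genes with a peak. Of 17 mitochondrial tRNA synthetases 9 had a peak and none scored over 20. Their highest score, 15.03, was at the far end of Lars2, in a stretch with 6 CpGs that was 44.2% methylated.

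None of the immediate early, cytokine and matrix genes scored over 20, a count near the 0.78% of expressed genes for lists of this length. Of 24 immediate early genes 15 had a peak with a median score of 5.06, Dusp1, a phosphatase of MAP kinases, having the highest at 14.0. Of 25 cytokine and NF-kB target genes 21 were higher in treated cells and 6 had a peak, the highest being 16.3 at Tnfaip3, an inhibitor of NF-kB signalling. Of 20 collagen and matrix genes, whose median FPKM was 253.5, 4 had a peak, and 36 of 94 ribosomal protein genes did. Atf4 itself stood at FPKM 848.9 against 207.9 and had a peak with a score of 6.92, between the median and the upper quartile (7.38) of all peaks. Housekeeping genes were close to the background with 7 of 14, including Actb with a score of 8.84. Of the other lists, 23 of 29 translation factors, 10 of 16 autophagy genes, 20 of 33 bZIP genes and 9 of 17 sterol synthesis genes had a peak. So did 7 of 22 mitosis and replication genes, where 50.4% of genes at FPKM 1 or more had a peak. The counts were 5 of 16 keratinocyte genes, 8 of 20 neuronal and germline genes and 3 of 1115 olfactory receptor genes. None of the genes in these last 3 lists reached FPKM 1 in treated cells. Over all genes, 8.83% had a peak at FPKM 0 to 0.1 and 29.7% at 0.1 to 1.

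**Figure D4:**
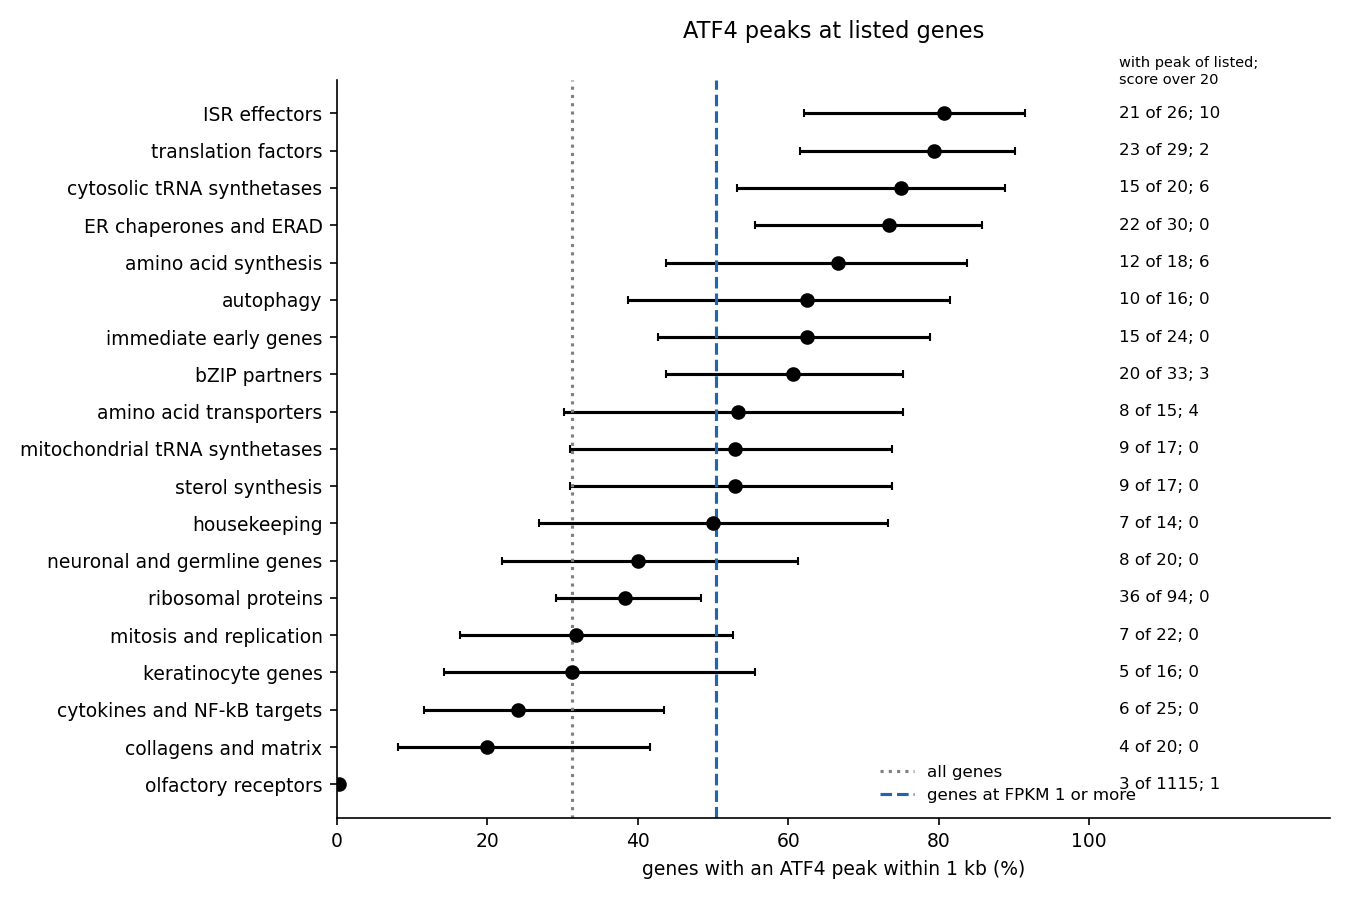
Percent of each gene list with an ATF4 peak within 1 kb (x axis, 95% Wilson intervals), with the number with a peak and the number scoring over 20 at the right. Dotted and dashed lines mark all genes (31.2%) and genes at FPKM 1 or more (50.4%). ISR effectors and ER chaperones have similar shares, 80.8% and 73.3%, with 10 and 0 genes scoring over 20. Herpud1, which aids the removal of misfolded ER proteins, is counted among the ISR effectors.

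Composite sites and CEBPB overlap were concentrated at the highest scores. The 6922 peaks within 1 kb of a locus end were ranked by score, and letters were searched on both strands of their central 200 bp. TGATGNAA or TGACGCAA was in 44% of the first 50 peaks (22, interval 31.2 to 57.7) and 14.7% of peaks ranked 51 to 200 (22 of 150). It was in 1.88% of peaks ranked 201 to 1000, 0.90% of those ranked 1001 to 3000 and 0.535% of the last 3922. Around starts of genes without a peak, windows of the same length held these letters in 2.66%, and around the starts of all 21571 annotated genes in 2.32%. Overlap with CEBPB peaks of treated cells went from 64% of the first 50 through 20%, 3.38% and 1.85% to 1.30% of the last. Genes higher in RNA made up 24.5% of the expressed genes at the first 50 peaks and 11.3% at the next 150, then 4.88%, 5.04% and 5.30%.

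By RNA class these features were much closer together. The central 200 bp held TGATGNAA or TGACGCAA in 1.03% of the 778 peaks at silent genes and in 2.89% of the 1384 peaks at genes over FPKM 20. TGATGNAA alone was in 0.90% and 1.73%. CEBPB of treated cells overlapped 14 of 778 peaks at silent genes (interval 1.07 to 3.00%) and 5.06% of those at genes over FPKM 20 (70 of 1384, 4.02 to 6.34). GGGCGG, the GC box bound by SP factors, was in 52.1% of peaks at silent genes and 64.5% at genes over FPKM 20. It was at 42.7% of the starts of all annotated genes and 56.8% of starts of genes over FPKM 20 without a peak. CCGGAAG, an ETS site, was in 3.47% and 11.1%, beside 9.78% of all starts and 15.1% of starts over FPKM 20 without a peak. The windows of peaks were centred on the peak and those of starts on the start. These shares therefore differ in place as well and do not show whether a peak goes with more or fewer such sites. CGATGCAA, a composite site with a CpG in place of the first TG, was in 10 of all 10067 peaks. A match is a description of letters, and 9 such patterns were searched.

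**Figure D5:**
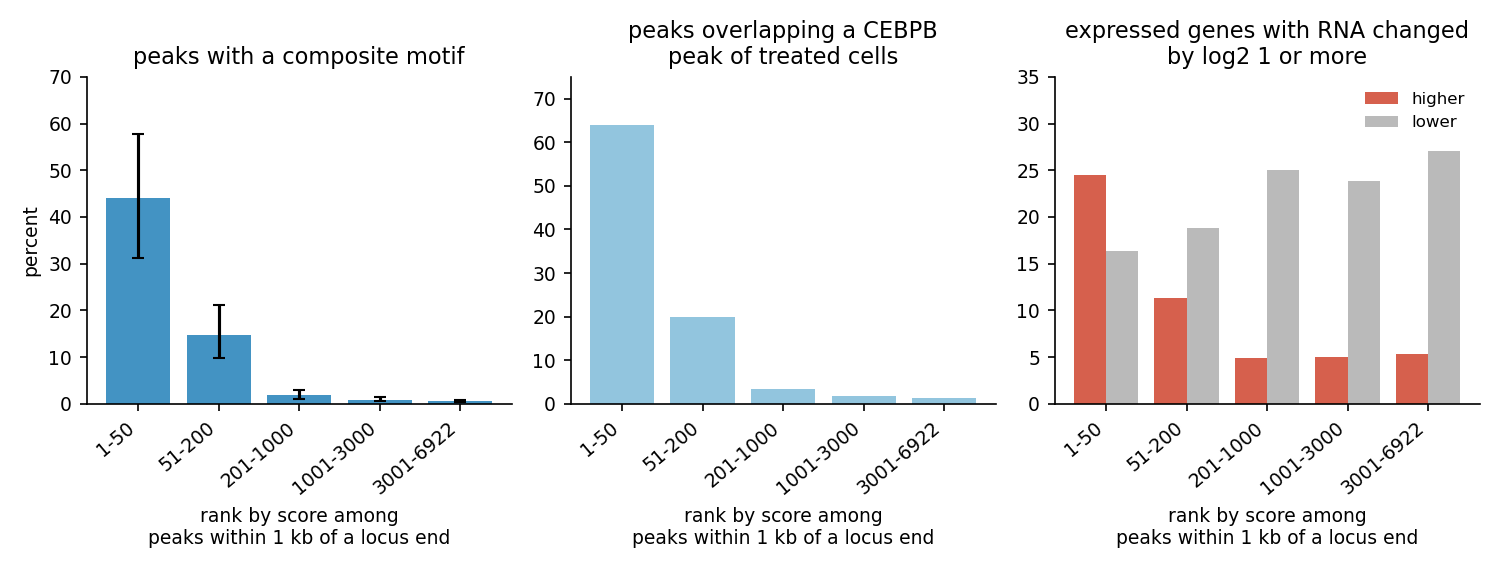
The 6922 ATF4 peaks within 1 kb of a locus end in 5 ranges of score rank (x axis). Bars give the percent of peaks with TGATGNAA or TGACGCAA in the central 200 bp (with 95% Wilson intervals), the percent overlapping a CEBPB peak of treated cells, and the percent of their expressed genes higher or lower by log2 1 or more. The first 2 measures go from 44% and 64% in the first 50 peaks to 0.535% and 1.30% in the last range.

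The 806 silent genes with a peak, at FPKM under 0.1, were mostly protein-coding (637), and 495 had a CpG-rich start. For 153 of them the same peak lay within 1 kb of a gene at FPKM 1 or more, for 79 it was shared with other genes only, and for 574 it was shared with none. In untreated cells 21 of the 806 stood at FPKM 1 or more. Long noncoding RNA genes (lincRNA) had peaks more often than protein-coding genes in this class, 30.7% (62 of 202, 24.7 to 37.4) against 9.30% (637 of 6853, 8.63 to 10.0). Of the 153 silent genes that share their peak with a gene at FPKM 1 or more, 70 were protein-coding. How many of the lincRNA peaks are shared in this way was not counted, so some may be peaks of an expressed neighbour. Scores over 20 were found at 7 silent genes, 6 of which are numbered models or microRNA genes; the other is the olfactory receptor gene Olfr94, listed at FPKM 0 in both libraries, with a score of 21.4 and a peak that was 1.36% methylated over 49 CpGs.

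The 20 silent genes with the highest scores by name, with one more that shares its peak, had scores from 11.03 to 21.38. None of their 20 peaks overlapped CEBPB of treated cells and 2 held TGATGNAA or TGACGCAA, where 6.85% and 6.42% of the 467 peaks in that range of scores within 1 kb of a locus end did, so both counts are close to the share over peaks of like score. Both of these share their peak with an expressed neighbour. Mc1r, the melanocortin receptor, at FPKM 0.004, has a score of 19.8 at its downstream end. That peak covers the start of Tubb3, a tubulin at FPKM 9.94, with its centre 34 bp upstream of the start. The entry A630020A06, at 0.071, shares a peak of score 12.5 with AW549877 at 6.42. Nhlrc4 likewise lies beside Pigq, an enzyme of membrane anchor synthesis at FPKM 9.59, with a shared score of 11.7. The others had no expressed neighbour at the peak: among them were Diras2, a small GTPase (score 15.4, FPKM 0.044), Amph, a protein of synaptic endocytosis (15.1, 0.025), Hook1, a microtubule linker (13.7, 0.034), Lepr, the leptin receptor (11.9, 0.027), and Ephb1, an ephrin receptor (11.1, 0.035). Epcam, an epithelial adhesion gene with a score of 13.7, stood at FPKM 0.085 in treated and 3.21 in untreated cells.

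Some peaks at germline genes were highly methylated. Stk31 and Hormad1, both expressed in germ cells, had scores of 13.8 and 11.1 at CpG-rich starts that were 77.5% and 83.8% methylated under the peak in untreated cells. Of the 8 listed neuronal and germline genes with a peak, 3 were over 50% methylated under the peak. The germline genes Ddx4 and Sycp1 had lower scores of 8.13 and 7.43 with 68.0% and 69.9%, and Dazl, also a germline gene, had 6.16 with 13.3%. Their FPKM in treated cells was 0.002 for Stk31, 0 for Hormad1, 0.035 for Ddx4, 0.122 for Sycp1 and 0.015 for Dazl. The centres of the peaks at Stk31 and Hormad1 are shown as CpG-rich stretches without a composite site, on the strand of the gene, with no capitals.
Stk31, chr6:49345536-49345595: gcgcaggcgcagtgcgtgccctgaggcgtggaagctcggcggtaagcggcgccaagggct
Hormad1, chr3:95363488-95363547: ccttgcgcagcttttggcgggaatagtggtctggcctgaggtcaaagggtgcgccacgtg

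Most peaks at silent genes were nearly free of methylation. The median peak was 0.783% methylated at silent genes and 0.066% at genes over FPKM 20, over peaks with at least 3 measured CpGs, and 63 of 764 peaks at silent genes (8.25%) and 7 of 1384 at genes over FPKM 20 (0.506%) were over 50% methylated. The 3145 peaks with no gene within 1 kb had a median of 11.2%, and 38.0% of the 2149 with 3 CpGs were over 50%. Of the 50 ATF4 peaks with the highest scores, 20 lay within 1 kb of a locus end, so the named genes cover only part of the high peaks. At CpG-poor starts, unmethylated ones had peaks more often at every RNA level. With under 10% methylation, 17.4% of genes at FPKM 0 to 0.1 (122 of 703) and 25.1% over 20 (86 of 342) had a peak. With 60% or more the shares were 2.41% (51 of 2112) and 2.70%, the latter being 1 of 37 genes (interval 0.479 to 13.8). At FPKM 5 to 20 it was 1 of 90 genes with 60% or more. Methylation was measured in untreated cells, and no coverage was given with its percentages.

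Many of the most abundant RNAs came from genes without an ATF4 peak. The 10 highest were Bgn and Sparc, matrix proteins at FPKM 3496 and 3281, the ribosomal proteins Rpl41 and Rplp1 at 2545 and 1261, the chemokine Ccl2 at 2118, the noncoding RNA H19 at 1463, the collagen chaperone Serpinh1 at 1328, the filament protein Vim at 1223, the ferritin chain Ftl1 at 1217 and the matrix protein Thbs1 at 1171. Ccl2 stood at 76.0 in untreated cells and so was higher by 4.78 on the log2 scale without a peak within 1 kb. Fgf21 and Nupr1, a secreted hormone and a chromatin-associated stress protein of the effector list, were also without a peak, at FPKM 65.0 against 10.7 and 655 against 131. Gapdh, a glycolytic enzyme that every cell uses, was listed at 0.179 in treated and 170.5 in untreated cells with no peak, so a low treated FPKM does not always mean a silent gene.

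Genes whose RNA was higher after thapsigargin did not have a peak more often than the other expressed genes. A peak was found at 44.1% of the 734 genes higher by log2 1 or more (interval 40.6 to 47.8), 44.2% of the 3406 lower (42.5 to 45.8) and 51.0% of the 8014 with neither (49.9 to 52.1). Scores over 20 were found at 1.91% of the higher genes (14, interval 1.14 to 3.18), 0.528% of the lower (18, 0.335 to 0.834) and 0.699% of the others (56, 0.539 to 0.906). Read the other way, 15.9% of 88 expressed genes with a score over 20 were higher (interval 9.72 to 25.0), 5.32% of 5825 genes with a lower score (4.77 to 5.93) and 6.57% of 6241 genes without a peak (5.98 to 7.21). Of genes over 20 with TGATGNAA or TGACGCAA in the peak's centre, 7 of 35 were higher, and of those without, 7 of 53. With CpG-rich starts alone, 65.6% of the higher, 64.3% of those with neither and 58.7% of the lower genes had a peak, and with CpG-poor starts 9.13%, 12.8% and 15.2%, the opposite order. When changes were centred on the median of genes at FPKM 5 or more, 47.6% of the higher and 43.0% of the lower genes had a peak.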

How the data were processed

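RNA of treated and untreated dermal fibroblasts, ATF4 and CEBPB immunoprecipitations and pooled bisulfite sequencing were used, 7 libraries in all. Per the submitters' processing notes, reads were handled with CASAVA 1.8.2 and Bowtie (RNA), CASAVA 1.7, BWA and SAMtools (immunoprecipitation) and CASAVA 1.8 and Novoalign (bisulfite), on mm9. RNA tables hold FPKM, deposited by the authors for each gene with its confidence bounds and a status. Each peak has a score, deposited by the authors, from 1 library; what the score measures, the peak caller, any control and the FPKM program are not named in the sources used here. Methylation is a percent per CpG cytosine, deposited by the authors as a pooled value without coverage; 83035 cytosines marked heterozygous were left out.

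Genes were matched by symbol and position to GENCODE vM1 (21571 of 22943). The strand came from GENCODE, while gene starts and ends are those of the locus listed with the FPKM. A peak counted with any base within 1000 bp of a locus end, and the highest score was kept. The RNA change was the difference of log2(FPKM + 1), called at 1 or more for genes that reached FPKM 1 in at least 1 library. The implied fragments behind the bounds took the upper bound as the FPKM plus 2 FPKM over the square root of the fragments; among genes with few fragments, 81.1% of 4428 in the treated and 75.1% of 4269 in the untreated library were whole within 0.05. Peak sequence came from the NCBIM37 (mm9) genome. Overlap with CEBPB was 1 bp or more. Python 3.11.15 with pandas 2.3.3 and scipy 1.17.1 was used, and the assignment of peaks was tested on simulated data. Every sample column was assigned.

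Named genes were the 20 expressed (FPKM 1 or more) and the 20 silent (under 0.1) genes with the highest scores, without numbered models, microRNA and small nucleolar RNA genes, together with the genes that share such a peak; up to 4 members of each list with the highest scores; the 10 highest FPKM without a peak; and 12 fixed genes. List members named beside their group's counts, such as Fgf21 and Nupr1, were chosen after their values were seen. The members, lists and classes were chosen with earlier results of these data known. Alternatives covered the window, the end used, score limits, gene filters, the RNA class and the change.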

Additional observations from a re-analysis of the deposited data

Results flagged for a closer look

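ATF4 peaks outside the comparisons were found on the chromosomes left out by rule: 32 on the Y chromosome, although the mice are female, with a median score of 6.06 and a highest of 36.2, and 10 on the mitochondrial chromosome, with a median of 16.5 and a highest of 38.2. CEBPB peaks of treated cells included 10 on the mitochondrial and none on the Y chromosome, and CEBPB peaks of untreated cells had none on either. There was no ATF4 control library to set beside these counts. How they arose was not tested.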

How the results depend on the processing

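The share with a peak and the median highest score were higher over FPKM 20 than at 0 to 0.1 under each of the 14 alternatives run for them, while the share with a peak, 44.1% for genes with higher and 44.2% for genes with lower RNA, was higher for the former in 9 of 15. In all, 56 of 96 alternative values lay within the interval of the main value and 40 did not; those 40 follow, and where no construction (another window, end, score limit or gene set) shows the cause, it was not tested. The share in the 2 classes was 7.53% and 52.9% with a window of 500 bp and 13.8% and 62.3% with 5 kb. It was 1.87% and 3.02% at gene ends only and 4.37% and 36.5% with peaks above the median score. With scores over the upper quartile (7.38) it was 1.83% and 21.5%, and with classes of untreated RNA it was 7.73% and 53.5%. In the lowest class it was 6.92% without genes near another locus end and 17.0% without genes at FPKM 0. The median score in the 2 classes was 7.05 and 7.94 above the median score and 9 and 9.82 over the upper quartile. Over FPKM 20 it was 5.65 at gene ends, 6.28 with untreated classes and 5.41 (median of genes) at CpG-poor starts. The share among genes higher and lower in RNA was 50.7% and 51.0% with 5 kb, 3.66% and 1.72% at gene ends, 27.1% and 25.4% above the median score and 16.6% and 13.6% over the upper quartile. For lower genes it was 41.9% with 500 bp and 46.4% for genes at FPKM 5 or more. Splits by start, added after the data were seen, gave 47.0% and 66.4% by class and 65.6% and 58.7% by change at CpG-rich starts, and 3.63% and 17.1%, and 9.13% and 15.2%, at CpG-poor ones. TGATGNAA anywhere in the peak was at 3.03% over FPKM 20. No paired analysis was possible because the groups compared have 1 library each, and for the same reason no replicate could be left out. Silent genes above FPKM 0 rested on a median of 4 implied fragments, so their single values are imprecise.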
